A study of Homo sapiens with 4 samples.

Results

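AP-1 is the set of dimeric transcription factors formed by the FOS and JUN proteins, and its genes were read here in A549 cells, a human lung adenocarcinoma cell line, with and without embelin. Probes were taken as members where the files named them FOS, FOSB, FOSL1, FOSL2, JUN, JUNB, JUND, BATF3 or JDP2, or where their RefSeq transcript belonged to one of these genes. The rule found 16 probes of 9 genes, among 50238 probes of 30970 genes or transcripts named in the files, and none was chosen for its measured value. BATF3 was found through its transcript, since the files gave it the older name SNFT.

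The FOS and JUN proteins share a basic region that contacts DNA and a leucine zipper through which they pair. JUN proteins can pair with each other, whereas FOS proteins need a JUN or another zipper partner, and the pairs bind a short palindrome called the TPA response element (TRE). FOS, FOSB, JUN and JUNB are immediate early genes, whose transcription starts within minutes of growth factors or stress without new protein synthesis, and the JUN proteins are substrates of the JNK kinases. In lung epithelial cells AP-1 is known for its part in stress responses, invasion and the expression of matrix proteases.

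The control samples were untreated A549 cells and the treated samples were A549 cells given 15 µM embelin, a benzoquinone from plants, both collected at 4 h and both kept in medium with 2% serum from before the treatment on. There were 2 samples per group, each on its own single-colour array, and the experiment asked which genes respond at a time when the treated cells enter apoptosis. No label describes a vehicle in the untreated samples, and nothing says whether the samples of a group were separate cultures, so that p-values measure the spread between these samples, which may be technical. Since RNA was taken from whole cultures, more RNA per cell and more cells with the RNA cannot be told apart.

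A single slide held all 4 arrays and was scanned once, with the controls at its outer and the embelin samples at its inner positions, so position and treatment cannot be told apart. The share of probes well above background by the scanner software was 66.7% and 50.3% in the controls against 51.2% and 66.4% with embelin, and no spot was saturated. Of 7 epithelial markers 6 were well above background on all 4 arrays, against 1 of 6 fibroblast, 1 of 5 leukocyte and 0 of 3 endothelial markers. The summed intensity of the epithelial markers was 425300 and 478400 in the controls against 379300 and 392200 with embelin. That of the fibroblast markers was 117 and 304 on the controls and 1009 and 236 with embelin, that of the leukocyte markers 813 and 936 against 1200 and 600.2, and that of the endothelial markers 63.5 and 38.4 against 45.0 and 59.7. DCN, PDGFRB and CDH5 were not well above background on any array. Single markers did differ, with the epithelial CLDN4 (1 of 2 controls well above background) called higher by 2.78 on the log2 scale (adjusted p = 0.032 from limma) and the fibroblast collagen COL1A1 at 1.30 (adjusted p = 0.0661 from limma), both named after their values were seen, and their part in the results below was not tested.

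FOS and FOSL1 rose with embelin, and 8 of the 9 genes had a positive log2 fold change of at least 0.51 at their brightest probe, the exception being BATF3 at 0.13. FOS was 5.37-fold higher and FOSL1, a FOS-related gene long tied to growth and invasion of tumour cells, 5.18-fold higher with embelin. JUN had the largest fold change of the family's genes well above background on all 4 arrays, 12.5-fold, but with a wide spread between samples of a group. JUNB, FOSL2 and JUND lay between 1.92-fold and 2.77-fold, JDP2 was at 1.43-fold and BATF3 at 1.10-fold. The values that follow are normalized log2 signals, for which each array was shifted to the same 75th percentile.

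All 16 member probes passed the filter, which asked that either group have both of its arrays well above background, and 14 were well above background on all 4 arrays. The other 2, FOSB and the second FOSL1 probe, passed through the embelin group alone. The counts of positive changes, of both embelin arrays above both controls and of calls are also given below without these 2 probes. The counts by unadjusted p are given over all 16 probes only. The log2 fold change was positive for 16 of 16 probes, against 45.4% of the kept probes. After Benjamini-Hochberg adjustment over all kept probes, limma called 3 of the 16 higher (the FOS probe and both FOSL1 probes) and 0 lower, where it called 0.83% of all kept probes higher and 0.249% lower. No member probe had an unadjusted p below 0.05 with a lower signal, while 11 had one with a higher signal, against 9.63% and 8.26% of the kept probes. At the threshold of the study's methods, a 2-fold change with an unadjusted p below 0.05, 10 member probes were higher by limma and 6 by the methods' t-test, against 4.58% and 2.98% of the kept probes, and 0 were lower, against 3.78% and 2.31%. Both embelin arrays lay above both control arrays for 15 of the 16 probes, against 21.4% of the kept probes, and below both for 0, against 28.3%. Of the 14 probes well above background on all 4 arrays, 14 had a positive log2 fold change, 13 had both embelin arrays above both controls and 2 were called higher, against 44.7%, 20.6% and 0.664% of all probes well above background on all 4 arrays. The probes are not all separate readings, since some belong to the same gene and 2 JUND probes share 57 of their 60 bases. The median log2 fold change was 1.39 over the 16 probes and -0.04 over all kept probes. The 16 include FOSB and the second FOSL1 probe, which passed the filter through the embelin group alone. FOSB has only a bound, and with FOSB at that bound the median was also 1.39. It could not differ, since the bound too lies above the middle of the 16 values.

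**Figure D1:**
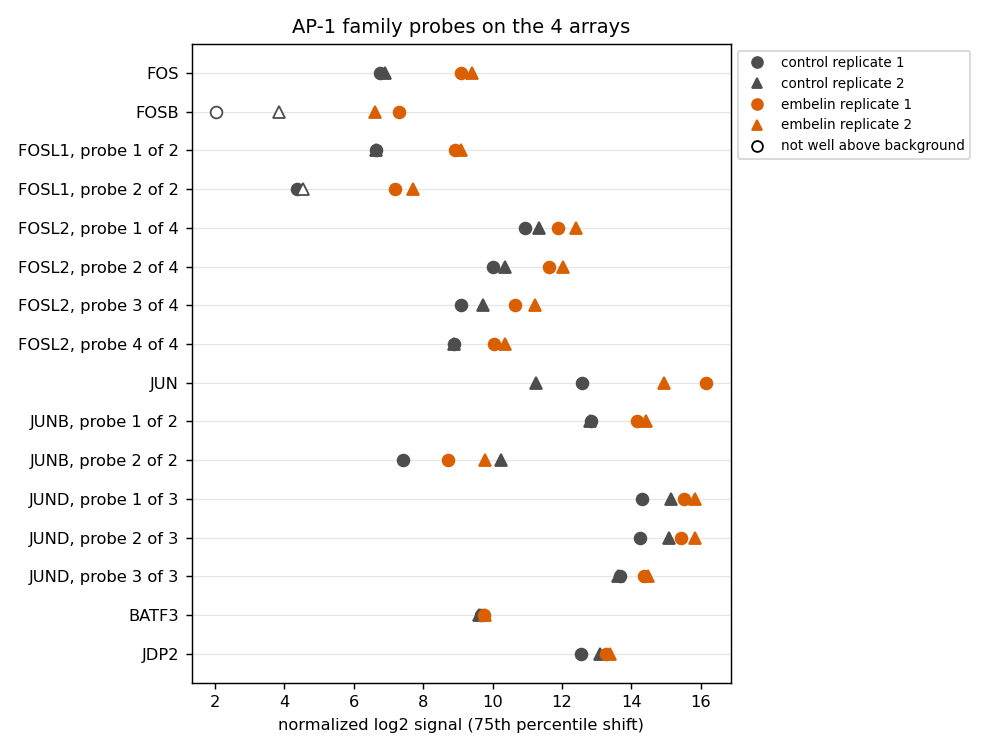
Normalized log2 signal (x axis) of the 16 probes of the 9 AP-1 genes on each of the 4 arrays, with grey marks for control and orange marks for embelin, circles for replicate 1 and triangles for replicate 2, and open marks for signals not well above background. For 15 of the 16 probes both orange marks lie to the right of both grey marks, the exception being the second JUNB probe.

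The promoters of FOS, FOSB and FOSL2 are shown with the motifs that regulation of the family is known for. RefSeq's windows of 250 bases before to 50 after the transcription start (GRCh38.p14) were found for 7 of the 9 genes, in 9 windows, and those of FOSL1 and BATF3 were not used here. Capitals mark the core of the cyclic AMP response element (CRE, TGACGTCA, with the core TGACGT), the TRE (TGACTCA), its variant known from the JUN promoter (TGACATCA) and the TATA box (TATAAA). Each motif was searched on both strands, and the CRE holds its core on each strand.
FOS, chr14:75278578-75278877, plus strand: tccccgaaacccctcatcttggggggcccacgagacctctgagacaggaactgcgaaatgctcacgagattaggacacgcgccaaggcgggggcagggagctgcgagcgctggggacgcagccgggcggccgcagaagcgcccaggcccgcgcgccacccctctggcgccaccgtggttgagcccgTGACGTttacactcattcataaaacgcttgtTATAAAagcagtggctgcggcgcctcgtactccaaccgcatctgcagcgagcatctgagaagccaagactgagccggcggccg
FOSB, chr19:45467746-45468045, plus strand: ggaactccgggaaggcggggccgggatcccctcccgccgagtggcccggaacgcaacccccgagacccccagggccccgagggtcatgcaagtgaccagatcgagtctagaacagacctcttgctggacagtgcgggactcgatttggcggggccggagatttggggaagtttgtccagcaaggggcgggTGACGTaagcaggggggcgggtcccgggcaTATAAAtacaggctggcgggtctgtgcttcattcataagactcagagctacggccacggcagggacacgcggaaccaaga
FOSL2, chr2:28392608-28392907, plus strand: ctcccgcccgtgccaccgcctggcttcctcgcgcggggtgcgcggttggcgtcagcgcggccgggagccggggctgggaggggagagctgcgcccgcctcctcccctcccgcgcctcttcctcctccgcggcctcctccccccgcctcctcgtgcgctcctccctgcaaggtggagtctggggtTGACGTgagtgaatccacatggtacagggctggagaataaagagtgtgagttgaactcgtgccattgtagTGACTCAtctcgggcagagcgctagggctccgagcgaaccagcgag

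FOS, FOSB and FOSL2 each held 1 CRE core in these windows, at -64 to -59, -60 to -55 and -66 to -61 from the start site. FOS and FOSB also held a TATA box, at -33 to -28 and at -30 to -25, and FOSL2 held a TRE just after its start, at 5 to 11. Over the 7 genes, 5 had a CRE core (FOS, FOSB, FOSL2, JUND and JDP2), against 7.98% of all 35116 windows, a count over windows and not over genes. The TRE was in 4.95% and the TATA box in 11.5% of the windows. The CArG box, to which serum response factor binds, was in none of the 7 genes' windows and in 1.29% of all windows. Bases more than 250 before the start were not searched, so the count leaves out any CArG box further upstream. These matches describe the letters of the windows.

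**Figure D2:**
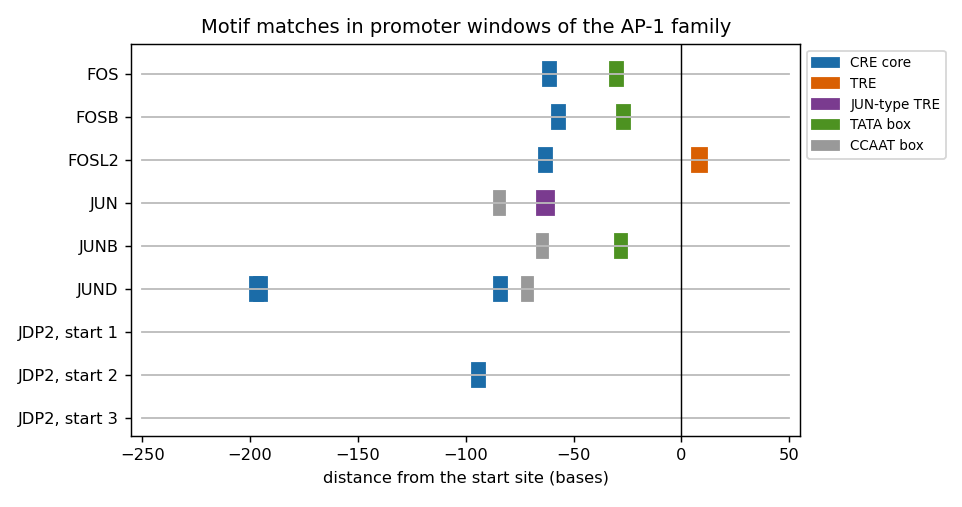
Motif matches in the 9 promoter windows of 7 AP-1 genes, by distance from the start site in bases (x axis), with 1 line per window and coloured boxes for CRE core, TRE, JUN-type TRE, TATA box and CCAAT box. The CRE cores of FOS, FOSB and FOSL2 lie within a few bases of one another, while JUND holds its complete CRE further upstream, at -200 to -193.

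FOS, the immediate early gene that gave the family its name, had a log2 signal of 6.74 and 6.90 in the controls and 9.08 and 9.42 with embelin. Both embelin samples were well clear of both controls, and samples of a group were close to each other. The log2 fold change was 2.43 (SE 0.21, 95% interval 1.85 to 3.0, adjusted p = 0.0361 from limma), and the 4 differences between an embelin and a control array ran from 2.18 to 2.68. With the deposited table of probe values in place of the scanner files its adjusted p was 0.0505 from limma, just past the threshold. FOS ranked 296 by log2 fold change among the kept probes.

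FOSL1, which encodes FRA1, had 2 probes that share no run of more than 6 of their 60 bases. The brighter probe read 6.64 and 6.63 in the controls and 8.93 and 9.09 with embelin. The second read 4.36 and 4.54 in the controls, of which 1 was well above background, and 7.20 and 7.70 with embelin, so that it passed the filter through the embelin group alone. At neither probe did the groups overlap, and at the brighter one the controls were nearly equal. The log2 fold changes were 2.37 (SE 0.18, adjusted p = 0.0306 from limma) and 3.0 (SE 0.25, adjusted p = 0.0327 from limma), with 95% intervals of 1.88 to 2.86 and 2.32 to 3.68. With normexp background correction the second probe was at 1.49, and with quantile normalization it lost its call (adjusted p = 0.0695 from limma), while the brighter probe was called under both. The second value is set in part against a signal not above background, and the call of the gene is read from the brighter probe.

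FOSB, the closest relative of FOS, stood well above background on both embelin arrays, at 7.30 and 6.62, and on neither control. Its signals on the control arrays, 2.03 and 3.83, were therefore not above background, and by a bound embelin was at least 4.35-fold higher. This bound sets the embelin mean against the lowest signal well above background on each control array, or the probe's own signal where that was higher. It is not a firm limit, and with normexp background correction the log2 fold change was 1.43. The fitted log2 fold change of 4.03 (adjusted p = 0.0867 from limma) depends on the dim control signals, and FOSB was not called.

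FOSL2, which encodes FRA2, had 4 probes with no shared run of more than 6 bases. The brightest read 10.92 and 11.32 in the controls and 11.88 and 12.39 with embelin. The next read 10.01 and 10.35 against 11.61 and 12.01, the third 9.10 and 9.73 against 10.65 and 11.22, and the fourth 8.88 and 8.89 against 10.04 and 10.35. At all 4 probes both embelin arrays were above both controls. The log2 fold changes were 1.01 (SE 0.28), 1.63 (SE 0.25), 1.52 (SE 0.34) and 1.31 (SE 0.20), and none was called, with adjusted p of 0.186, 0.0758, 0.134 and 0.0763 from limma. The brightest probe, which stands for the gene in the counts by gene, was the smallest of the 4.

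Of the JUN genes, the promoters of JUN and JUND are shown because they carry different forms of the element, with the same marking as above.
JUN, chr1:58783998-58784297, minus strand: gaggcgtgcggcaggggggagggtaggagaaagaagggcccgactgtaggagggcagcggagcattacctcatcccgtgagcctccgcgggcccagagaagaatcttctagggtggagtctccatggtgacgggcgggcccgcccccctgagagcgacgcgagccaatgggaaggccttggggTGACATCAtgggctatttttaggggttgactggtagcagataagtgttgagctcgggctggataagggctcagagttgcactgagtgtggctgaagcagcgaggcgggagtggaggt
JUND, chr19:18281573-18281872, minus strand: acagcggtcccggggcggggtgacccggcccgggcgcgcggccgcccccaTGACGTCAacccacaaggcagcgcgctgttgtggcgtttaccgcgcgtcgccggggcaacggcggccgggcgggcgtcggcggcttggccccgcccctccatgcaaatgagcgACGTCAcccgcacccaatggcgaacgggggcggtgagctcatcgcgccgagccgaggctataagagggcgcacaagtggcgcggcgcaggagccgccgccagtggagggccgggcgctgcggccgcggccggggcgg

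JUN held the variant TGACATCA at -67 to -60, a motif found in 2.61% of all windows, and neither a CRE core nor a TRE. JUND held the complete CRE at -200 to -193, found in 1.85% of all windows, and a further CRE core on the opposite strand at -87 to -82. JUNB, whose window is not printed, held a TATA box at -31 to -26. A CCAAT box (CCAAT) was in the windows of JUN, JUNB and JUND and in 34.6% of all windows.

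JUN, the founding JUN gene, read 12.57 and 11.24 in the controls and 16.16 and 14.93 with embelin. Both embelin samples were above both controls, and replicate 1 was above replicate 2 in each group, by 1.33 in the controls and 1.24 with embelin. The log2 fold change was 3.64 (SE 0.64, 95% interval 1.91 to 5.38), and the 4 differences between an embelin and a control array ran from 2.36 to 4.93. The SD within groups was 0.94 and 0.87 (n = 2 each), a pooled spread above that of 94.6% of the kept probes, and JUN was not called (adjusted p = 0.0948 from limma). Between the arrays with the same replicate number the differences were 3.59 and 3.69. With only 1 probe for JUN, no second probe bears on this spread.

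JUNB, which can oppose or replace JUN in the AP-1 pair, had 2 probes that disagreed. The brighter probe read 12.84 and 12.80 in the controls and 14.17 and 14.41 with embelin, a log2 fold change of 1.47 (SE 0.19, adjusted p = 0.0608 from limma). The second read 7.41 and 10.23 in the controls and 8.71 and 9.77 with embelin. Its groups overlapped, and its spread was above that of 98.4% of the kept probes. Its log2 fold change was 0.42 (SE 1.04, 95% interval -2.39 to 3.24, adjusted p = 0.888 from limma), an interval that contains the value of the brighter probe. The probes share no run of more than 6 bases. The brighter one has a GC content of 25% and no forward reading frame free of stop codons, and the second, shown because it is the one member probe whose groups overlap, has a GC content of 55% and 2 such frames.
JUNB, second probe: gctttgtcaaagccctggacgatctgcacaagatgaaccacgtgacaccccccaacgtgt

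JUND, the JUN gene with the steadiest expression in most cells, had 3 probes, of which the 2 brightest share 57 of their 60 bases and do not count as separate readings. The brightest read 14.30 and 15.15 in the controls and 15.50 and 15.83 with embelin, and its near copy 14.25 and 15.09 against 15.43 and 15.83. The third probe read 13.68 and 13.62 against 14.36 and 14.49. The groups did not overlap at any of the 3, though at the 2 brightest a control array came within 0.36 and 0.34 of an embelin array. The log2 fold changes were 0.94 (SE 0.35), 0.96 (SE 0.36) and 0.78 (SE 0.18), with adjusted p from limma of 0.284, 0.284 and 0.141, so that JUND was not called at any probe.

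BATF3 and JDP2 pair with JUN proteins and, lacking the activation domains of FOS, often repress AP-1 sites. BATF3 read 9.65 and 9.60 in the controls and 9.74 and 9.77 with embelin, a log2 fold change of 0.13 (SE 0.17, 95% interval -0.34 to 0.60, adjusted p = 0.759 from limma). Its 4 signals lay within a narrow range, and the interval leaves room for a change of up to 0.60 on the log2 scale. JDP2 read 12.54 and 13.08 against 13.25 and 13.39, a log2 fold change of 0.51 (SE 0.26, 95% interval -0.18 to 1.20, adjusted p = 0.395 from limma). For JDP2 the gap between the groups was smaller than the gap between the controls.

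**Figure D3:**
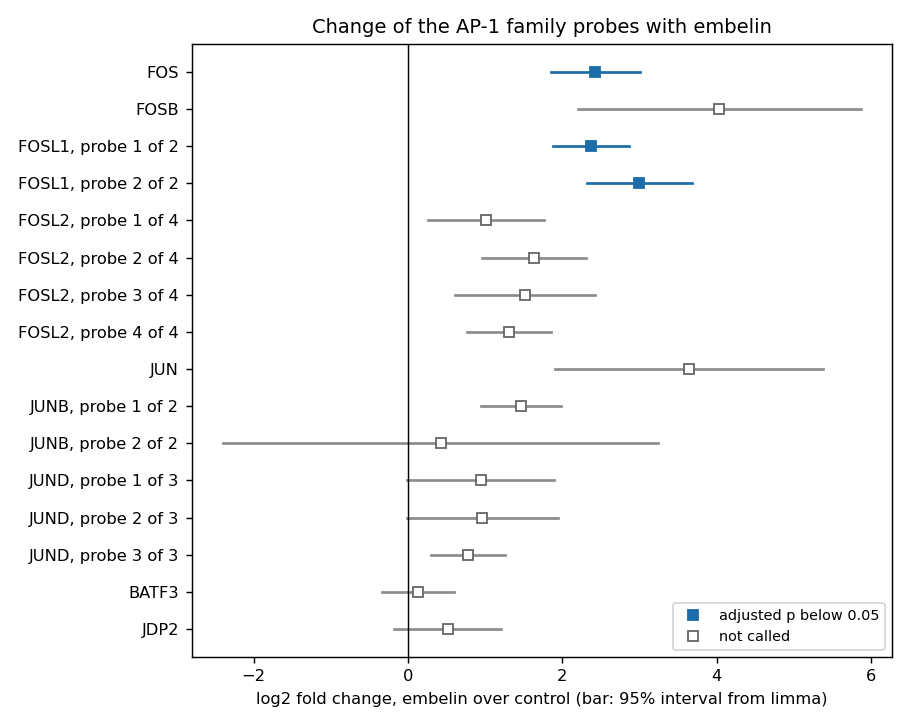
Log2 fold change of embelin over control (x axis) for the 16 probes, with squares for the estimates, bars for the 95% intervals from limma (2 arrays per group), and blue for an adjusted p below 0.05. The FOS probe and both FOSL1 probes are blue, JUN has a larger estimate with a wider bar, the estimate of FOSB is set against control signals not above background, and the second JUNB probe has the widest bar.

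Taken by gene at the brightest kept probe, 2 of the 9 were called higher and 0 lower, where 0.89% and 0.3% of all genes were. At the methods' threshold 6 of the 9 were higher by limma and 3 by the methods' t-test, against 4.31% and 2.99% of all genes, and 0 were lower, against 4.06% and 2.67%. FOSB is among these 6 but not these 3, and its fitted change rests on control signals not above background. FOSB has only the bound of 4.35-fold described above, which is not a firm limit, and takes no place in the order of the log2 fold changes. The order of the other 8 was JUN at 3.64, FOS at 2.43, FOSL1 at 2.37, JUNB at 1.47, FOSL2 at 1.01, JUND at 0.94, JDP2 at 0.51 and BATF3 at 0.13. Each neighbour in this order had a 95% interval that overlapped the next, and no difference between members was tested. The median over the 9 genes was 1.47, against -0.06 over all genes. With 2 arrays against 2, an exact permutation test of a single gene cannot give a two-sided p below 0.333, so the calls rest on the spread that limma shares over all probes. With any 1 of the 4 arrays left out, limma called 0 of the 16 probes, and 9 to 14 had an unadjusted p below 0.05, against 11.0% to 16.1% of all probes in the same fits.

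**Figure D4:**
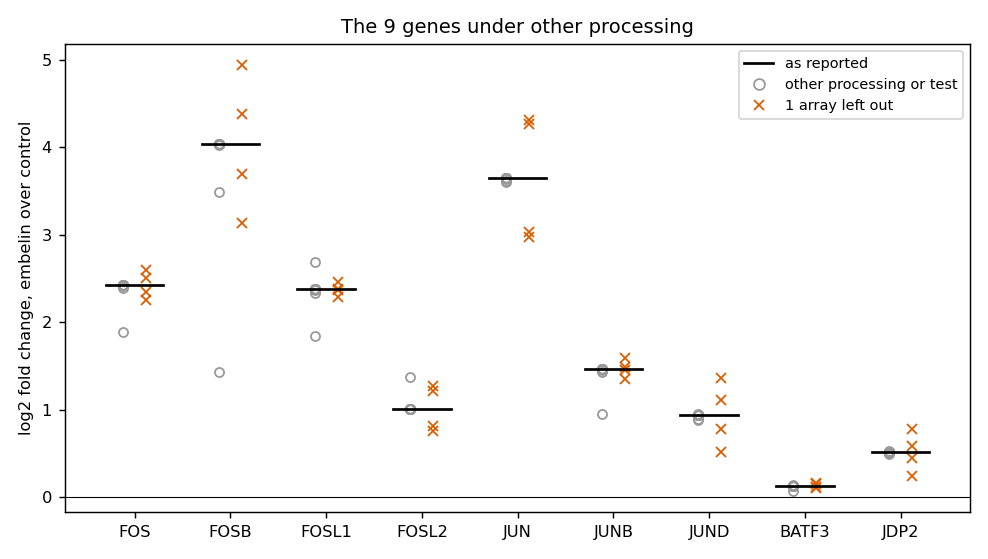
Log2 fold change of embelin over control (y axis) for the brightest probe of each of the 9 genes as reported (black line), under other processing or tests (grey circles) and with 1 array left out (orange crosses). Every mark lies above 0, JUN spans 2.98 to 4.31 as arrays are left out, and FOSB drops to 1.43 under another background correction.

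AP-1 genes were then set beside 4 lists of related genes, each gene at its brightest kept probe. Among 12 other zipper proteins that can pair with FOS or JUN, 11 were tested, 3 rose and none fell, against 0.89% and 0.3% of all genes, with a median log2 fold change of 0.52. At the methods' threshold 4 were higher and 1 lower by limma, against 4.31% and 4.06% of all genes. The lower one was BATF2 at -1.60 (adjusted p = 0.0614 from limma), a partner of JUN named after its value was seen. BATF2 was well above background on 1 of 2 embelin arrays and passed the filter through the control group alone. Its fall is therefore set in part against a signal not above background. Of the 3 that rose, MAF passed the filter through the embelin group alone. CREB5, among the 4 but not called and named after its value was seen, passed it that way too. In the fit on probes well above background on all 4 arrays, 2 of 7 partners were called higher and 0 lower. That fit called 476 of 22752 probes higher and 292 lower. ATF3, a stress-induced repressor and activator that pairs with JUN, read 8.55 and 8.24 in the controls and 14.09 and 14.11 with embelin, a log2 fold change of 5.71 (SE 0.20, adjusted p = 0.0255 from limma), and its other probe was at 5.87. DDIT3, which encodes CHOP, read 7.21 and 7.28 against 11.55 and 11.42, a change of 4.24 (SE 0.18, adjusted p = 0.0255 from limma). MAF read 5.19 and 5.21, with 1 of the controls well above background, against 7.47 and 7.15, a change of 2.11 (SE 0.20, adjusted p = 0.0427 from limma). The call of MAF was lost with normexp, where the change was 1.04 (adjusted p = 0.0907 from limma), and with quantile normalization (0.0511), the deposited table (0.0583) and outlier spots left in (0.0571). ATF2, the partner of JUN at CRE-like sites, was at -0.06 (adjusted p = 0.928 from limma) and is named here after its value was seen.

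Of 12 factors that bind the FOS and JUN promoters, such as serum response and CREB factors, 11 were tested and none was called in either direction, with a median of 0.29. At the methods' threshold 2 were higher by limma and none lower, against 4.31% and 4.06% of all genes. Of 17 proteins that modify FOS and JUN proteins, among them the JNK and ERK kinases and ubiquitin ligases, 15 were tested, none was called or passed the methods' threshold, and the values ran from -0.73 to 0.83 around a median of -0.09. The highest of these was MAPK8, which encodes JNK1 (9.87 and 9.96 in the controls, 10.74 and 10.75 with embelin, adjusted p = 0.124 from limma), named after its value was seen. The arrays read RNA only, so the activity of these kinases was not measured.

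Of 24 genes known for AP-1 sites in their promoters, 20 were tested, 6 rose and none fell, against 0.89% and 0.3% of all genes, and the median was 1.56. At the methods' threshold 10 were higher and 1, IL6, was lower by limma, against 4.31% and 4.06% of all genes. Of the 6 that rose, MMP1 and MMP10 passed the filter through the embelin group alone. CXCL8, among the 10 but not called and named after its value was seen, passed it that way too. In the fit on probes well above background on all 4 arrays, 7 of 17 genes of this list were called higher and 0 lower. That fit called 476 of 22752 probes higher and 292 lower. MMP1, interstitial collagenase, read 4.73 and 3.76 in the controls, 1 of them well above background, and 10.45 and 9.84 with embelin, a log2 fold change of 5.90 (SE 0.43, adjusted p = 0.0285 from limma), which was 3.67 with normexp and called there too. MMP10, stromelysin-2, stood well above background on neither control and read 8.25 and 8.02 with embelin. The bound used for FOSB put its increase at 9.82-fold or more, which is not a firm limit. Its adjusted p of 0.0255 from limma rests on control signals not above background. With normexp the log2 fold change of MMP10 was 2.43, and it was called there too. PTGS2, the inducible cyclooxygenase, read 11.63 and 11.23 against 14.73 and 14.57, a change of 3.22 (SE 0.23, adjusted p = 0.0285 from limma), and its other probe was at 3.33. The other called genes, PLAUR, IL11 and CSF2, were at 3.02, 2.40 and 2.35, and PLAUR lost its call with the deposited table and with outlier spots left in, and CSF2 with quantile normalization. Not all of the list was higher, since 5 of the 20 had a negative value, with IL6 at -1.07 (adjusted p = 0.0932 from limma) the lowest. PLAUR, IL11, CSF2 and IL6 were named after their values were seen. The lists were drawn up with results of these data known, so their counts are descriptions.

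**Figure D5:**
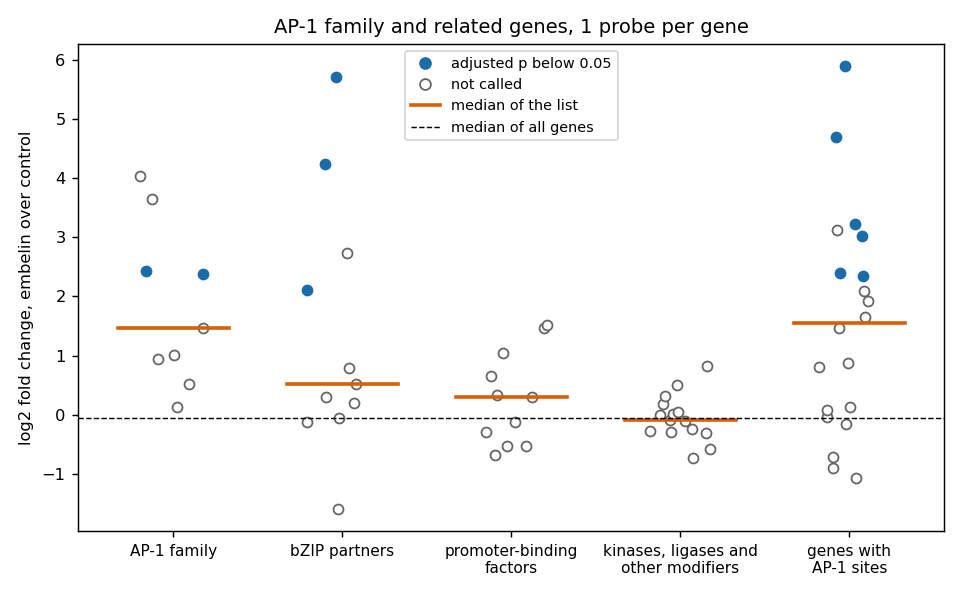
Log2 fold change of embelin over control (y axis) for the 9 AP-1 genes and the genes of 4 related lists, each point a gene at its brightest kept probe, blue for an adjusted p below 0.05 from limma, with an orange line at each list's median and a dashed line at the median of all genes. The AP-1 genes all lie above 0 with a median of 1.47, the genes with AP-1 sites have a median of 1.56, and the modifying proteins lie around -0.09. The medians of the AP-1 genes and of the genes with AP-1 sites include genes that passed the filter through the embelin group alone. No difference between the medians was tested.

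The genes whose pattern over the 4 arrays was nearest to FOS, by Euclidean distance of the log2 signals after each probe was centred on its own mean, were PPP2R5B at a distance of 0.143, NKAIN1 at 0.163 and HOXD9 at 0.17, out of 12132 named genes with 4 values. Those nearest to JUN were ITGB3 at 0.692, INSYN2A at 0.756 and VEGFA at 0.765. HOXD9, ITGB3 and INSYN2A stood well above background in 1 of 2 controls, so their distances rest in part on signals not above it. These genes were picked for their small distances, so their closeness to FOS or JUN is how they were chosen. The neighbours of JUN lay further off than those of FOS. With genes named only as in the files included, 17298 in all, the nearest to JUN lay at 0.436, and the nearest to FOS was unchanged. Of the JUN neighbours, VEGFA read 8.77 and 8.33 in the controls and 12.49 and 11.87 with embelin, with replicate 1 above replicate 2 in both groups as for JUN. The measure rests on 4 arrays.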

How the data were processed

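The authors deposited single-colour (Cy3) intensities from Agilent Feature Extraction 10.7.3.1 for each array of a custom human design, background-subtracted and detrended within the array, with surrogates where a spot did not exceed background and without normalization between arrays. The deposited flags for control type, background and outliers were used as other columns, and the deposited table of probe values, linear intensities averaged over spots, served as an alternative. The labelling used oligo-dT priming, per the labels.

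The intensities were shifted to a common 75th percentile over non-control spots, as the study's methods name. A floor of 1 was set before taking log2, outlier spots were dropped and the remaining spots of a probe averaged. A probe was well above background where at least 50% of its spots were. Of 50238 probes 26146 were kept (both arrays of either group well above background), and limma 3.58.1 (lmFit and eBayes) in R 4.3.3 tested 26145, since 1 had only outlier spots with embelin, with Benjamini-Hochberg adjustment over all of them. A gene was called at an adjusted p below 0.05, and its brightest kept probe stood for it in counts by gene. The fit was also run on simulated data with independent normal noise and known changes. That simulation shuffled the spread over probes and did not repeat the floor or the filter. It therefore does not show how often the calls in these data are false. The number of arrays limits the precision, and the median SD within groups was 0.23 in log2.

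The members and lists were chosen with earlier results of these data known. 1 marker gene is not reported here by name. Named were every member with all its probes, at most the 3 largest called genes of each list, the 3 genes nearest to FOS and to JUN, and markers well above background on no array, and other genes are said to be named after their values were seen. Probes were named by accession (28595), by another probe of the same name (2341) or as in the files (19302). Motifs were searched in RefSeq windows (GRCh38.p14). Alternatives were normexp background correction (offset 50), quantile normalization, the deposited table, other filters on dim probes, eBayes with trend and robust, the methods' t-test, outlier spots left in, a replicate block, the mean over probes, adjustment over genes, and leaving out each array.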

Additional observations from a re-analysis of the deposited data

How the results depend on the processing

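The direction of the member probes held in 222 of 224 values over 15 alternatives. The 2 exceptions were the second JUNB probe, at -0.99 without control replicate 1 and -0.11 without embelin replicate 2 (range -0.99 to 1.83 as arrays were left out). The counts that follow are all probes higher and lower, AP-1 probes higher, AP-1 genes higher and list genes higher, which were 217, 65, 3, 2 and 9 as reported. They were 541, 278, 7, 4 and 12 with normexp, 133, 27, 2, 2 and 7 with quantile normalization, 132, 26, 2, 1 and 7 with the deposited table, and 143, 27, 3, 2 and 7 with outlier spots left in. They were 476, 292, 6, 4 and 9 where all 4 arrays had to be well above background, and 743, 553, 9, 4 and 13 with trend and robust, which also called 1 list gene lower. With the mean over probes or adjustment over genes, 2 AP-1 genes and 9 list genes were called. No AP-1 probe was called lower under any of these.

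Without a filter on dim probes, with the methods' t-test, with the replicate block and with each array left out in turn, limma or that test called 0 in every count. Unadjusted p was then below 0.05 for 10, 7, 13 and 9 to 14 of the AP-1 probes, where all probes gave 5.86%, 14.1%, 20.2% and 11.0% to 16.1%, against 11 and 17.9% as reported. Arrays with the same replicate number had a correlation of deviations of 0.21 over 25631 probes, but 2 pairs cannot settle whether the numbers pair the samples, and no label does. With this block the adjusted p of JUN was 0.0694 (SE 0.18). JUN passed the threshold with normexp (adjusted p = 0.0473 from limma), the filter on all 4 arrays (0.0455) and trend and robust (0.0278), over a range of 0.0278 to 0.655 for all alternatives. FOSB was at 1.43 with normexp, and JUNB at 0.94 with the mean over its probes. With an array left out, the lone array of its group is assumed to vary like the others. The cause of these differences was not tested. The deposited table lost FOS, quantile normalization the second FOSL1 probe. Signal over background limits FOSB, MMP10, MAF, MMP1, BATF2, CREB5, CXCL8, HOXD9, ITGB3, INSYN2A and the second FOSL1 probe.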
